A study of Anser cygnoides with 9 samples.

Results

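The 43 genes described here encode, or by their symbols are related to, parts of the ubiquitin and proteasome system. They were taken by symbol from a deposited table of 1371 genes, as every row whose name begins with PSMA to PSMG, UBE, UBA, UBX, USP, OTU, FBX, RNF, TRIM, KLHL, CUL with a digit, COPS, DCAF or DCUN, together with DDA1. The rule reads symbols only, but it was set with earlier results of these data known. DDA1 is the only gene that it names in full. The transcripts were measured in cultured granulosa cells of 40-week-old Sichuan white geese (Anser cygnoides). Their source was preovulatory and pre-hierarchical follicles, the latter 4 to 12 mm wide, of ovaries removed 2 hours before laying; the labels call the tissue small and large yellow follicles. Granulosa cells surround the oocyte and make steroid hormones. The agonist group received alarelin acetate, a peptide analogue that activates the receptor of gonadotropin-releasing hormone (GnRH), the antagonist group received cetrorelix acetate, a peptide analogue that blocks that receptor, and the blank group is labelled as the control. Each group held 3 libraries. The analogue concentrations were picked in proliferation assays, but neither their values, the exposure times nor a vehicle of the blank cells was stated, so the analogues are set side by side and not matched by dose. Whether replicates are different birds or cultures is not stated either. The p-values therefore reflect the spread among 9 libraries, part of which may be technical, and in bulk RNA fewer cells of a type and less RNA per cell cannot be told apart.

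Ubiquitin is a small protein that is attached to other proteins in a chain of steps. An activating enzyme (E1) passes it to a conjugating enzyme (E2), and a ligase (E3) brings the E2 to the substrate. Cullin-RING ligases, the largest family of E3 enzymes, are built on a cullin scaffold with exchangeable substrate receptors (F-box, Kelch-like and DCAF proteins), while many RNF and TRIM proteins act as single-chain RING ligases. The proteasome degrades the tagged proteins, and deubiquitinases (USP and OTU families) remove the tag. In the ovary this system is known for turning over cell cycle regulators and hormone signalling proteins.

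The 43 genes fell into 15 subfamilies. They comprised 6 proteasome genes, 6 E2 enzymes (UBE2), 16 genes of cullin-RING ligases (9 FBX, 3 KLHL, CUL5, DCAF1, DCAF13 and DDA1), 2 regulators of cullins, 7 RING and TRIM genes, 3 deubiquitinases and 2 UBX genes. The remaining member, PSMC3IP, carries the proteasome prefix but is known as a partner of meiotic recombination proteins, so it is given apart. In the RefSeq gene table of the Taihu goose assembly 41 of the 43 symbols were found, all but TRIM7 and TRIM7.2. The E1 enzymes, the UBE3 and UBE4 ligases and ubiquitin itself were not analysed here.

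Values are in TPM, the usual relative unit of transcript abundance, which corrects for transcript length. The listed genes made up 2.88% to 3.26% of all TPM in a library, so the table holds part of the transcriptome, and the number of reads behind a value is unknown. A gene was tested if 3 or more libraries had it at 1 TPM or above, which kept 832 genes, 38 of them members. Between 809 and 833 of the 1371 genes were at 1 TPM or more in the antagonist libraries, 740 to 770 in the agonist libraries and 756 to 816 in the blank libraries. The libraries lay on 3 flow cells: H75K3DMXX held agonist replicate 1 with antagonist replicate 2, and H773TDMXX held agonist replicate 3 with blank replicates 2 and 3. The other 4 libraries, of all 3 groups, were on H77KGDMXX. Of 18 granulosa cell markers only FST, at 39.8 to 53.7 TPM, and EMX2, at 0.707 to 1.54 TPM, could be checked; FST was lower with the agonist than with the antagonist (log2 fold change of TPM + 1 -0.27, limma, adjusted p = 0.0467). No theca marker could be checked. Of the 10 blood and immune markers only C1QA and C1QB could be; their summed level was 1.69 to 3.41 TPM in the agonist, 0.425 to 2.52 TPM in the antagonist and 0.405 to 0.701 TPM in the blank libraries. CDH5 of the 6 endothelial markers was at 0 to 0.121 TPM, TCF21 of the 9 stromal markers at 0 to 0.776 TPM and ZP1 of the 7 oocyte markers at 0.208 to 0.452 TPM. The part of these differences in the results was not tested.

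Levels of the members spanned more than 3 orders of magnitude. TRIM7.2, a TRIM gene whose name is that of a gene in the chicken major histocompatibility region, had the highest mean over the 9 libraries at 262 TPM, followed by the proteasome core subunits PSMB3 (118 TPM) and PSMA2 (51.7 TPM). The E2 enzyme UBE2J2, which acts at the endoplasmic reticulum membrane, followed at 37.8 TPM, and PSMD13, a subunit of the regulatory particle, at 30.2 TPM. All 6 proteasome genes had means above 13 TPM, and among the 16 cullin-RING genes only FBXO22, at 13.9 TPM, did. At the other end, FBXO21, FBXO38, TRIM7, USP30 and FBXO15 had means of 0.707, 0.546, 0.530, 0.420 and 0.159 TPM and were not tested. The replicate spread of the tested members was like that of other genes: the median of the pooled SD of log2(TPM + 1) within groups was 0.137 for the 38 members and 0.141 for all 832 genes. FBXL22, an F-box gene, was the least steady member, with a pooled SD of 0.839; it was listed at 0 in blank replicate 2 and was at 4.08 and 2.6 TPM in blank replicates 1 and 3. DCAF13 was the steadiest, at 5.42 to 6.22 TPM in all 9 libraries.

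**Figure D1:**
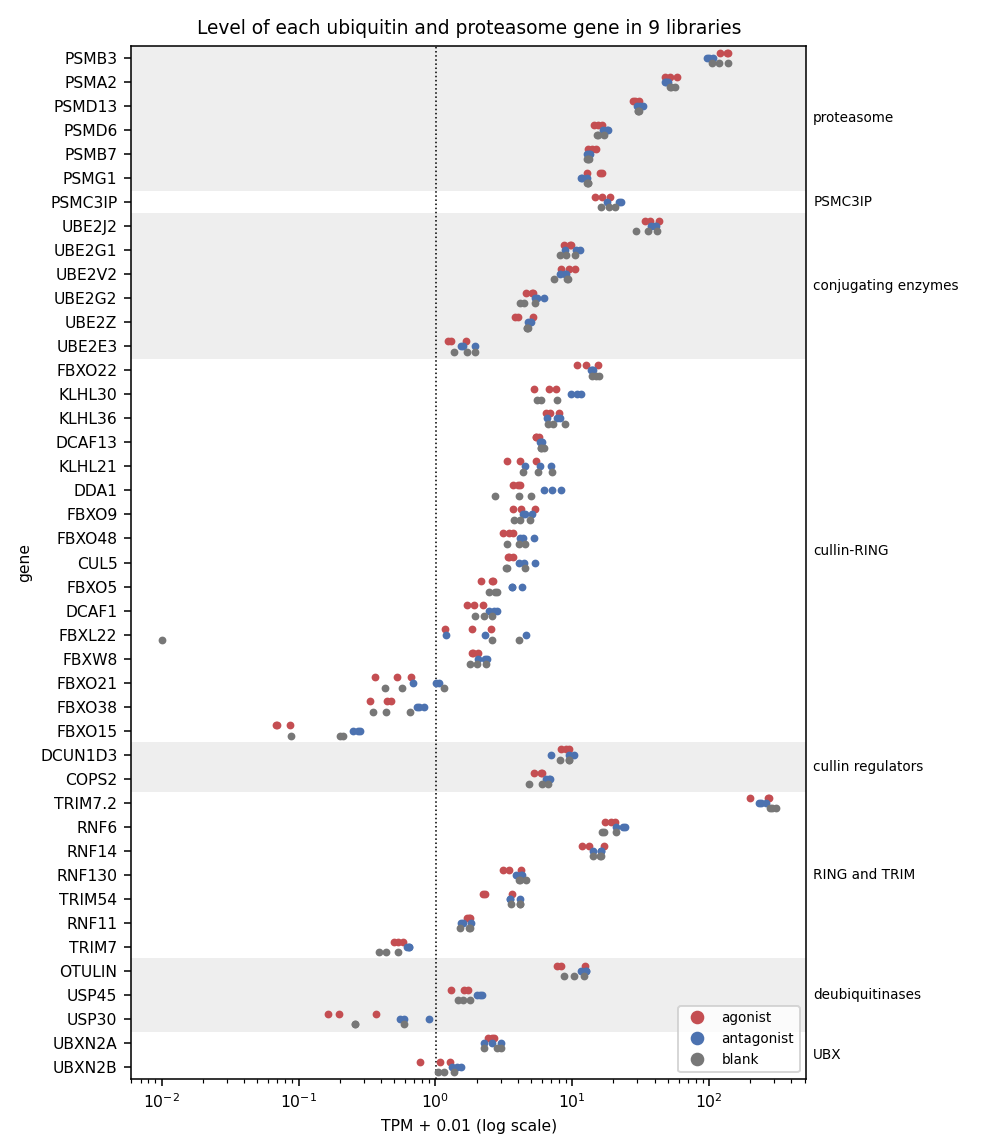
Level of each of the 43 genes in each of the 9 libraries, as TPM + 0.01 on a log axis; each point is 1 library, colours mark the groups and the dotted line marks 1 TPM. The 6 proteasome genes lie above 10 TPM in every library, while most cullin-RING genes lie between 1 and 10 TPM.

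The comparison of the analogues, named in the study's title, set a receptor-activating against a receptor-blocking peptide. The state of the receptor in these cells was not examined here. DDA1, KLHL30 and FBXO5, all from cullin-RING ligases or their relatives, were lower in agonist than in antagonist cells, and the proteasome core subunit PSMB3 was higher. Changes are given as log2 fold changes of TPM + 1, which understate the change of low genes. They were tested in limma on log2(TPM + 1) in all 9 libraries, with Benjamini-Hochberg adjustment over the 832 genes and a threshold of an adjusted p of 0.05. By that test 4 of the 38 members passed (10.5%), 3 lower and 1 higher, where 25.6% of all tested genes passed, 23.9% lower and 1.68% higher with the agonist. The share of members called was thus below that of all genes. An unadjusted p under 0.05 was found for 14 of the 38 members and for 43.1% of all tested genes. The median log2 fold change was -0.15 for the members and -0.21 for all genes.

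DDA1, a small protein that associates with the DDB1-CUL4 ligase, had the largest change of any tested member. As the rule names it in full with earlier results known, that rank is not an independent result. The counts, medians and sums given here that include DDA1 are not independent of those earlier results either. DDA1 was at 4.15, 3.98 and 3.68 TPM in agonist replicates 1, 2 and 3, and at 8.30, 7.08 and 6.21 TPM in the antagonist replicates. The blank replicates were at 4.99, 4.05 and 2.70 TPM. Every antagonist library was higher than every other library, and the agonist and blank libraries overlapped. The log2 fold change of agonist relative to antagonist was -0.73 ± 0.16 (SE, limma, adjusted p = 0.0156), or 1.65-fold lower in TPM + 1. Within flow cells H75K3DMXX and H77KGDMXX the log2 differences were -0.65 and -0.72. The call was lost under all 3 other scalings of the libraries. The log2 fold changes were -0.55, -0.47 and -0.49 after upper quartile scaling, quantile normalization and median of ratios scaling (limma, adjusted p = 0.0516, 0.0836 and 0.0616). These scalings were computed from the tested genes alone, a part of the transcriptome, whereas TPM is relative to a whole library.

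KLHL30, of the Kelch-like family of cullin 3 adaptors, was at 5.24, 7.6 and 6.79 TPM with the agonist and at 9.82, 10.7 and 11.7 TPM with the antagonist. Blank replicates 1, 2 and 3 were at 7.78, 5.88 and 5.53 TPM. The antagonist libraries again lay above all others. The log2 fold change was -0.65 ± 0.14 (limma, adjusted p = 0.0156), and within the flow cells it was -0.91 and -0.45. KLHL30 no longer passed after quantile normalization (-0.41, limma, adjusted p = 0.0594).

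FBXO5, also called EMI1, is an inhibitor of the anaphase-promoting complex, itself a ubiquitin ligase of the cell cycle. Its agonist libraries were at 2.63, 2.6 and 2.13 TPM and its antagonist libraries at 3.62, 3.65 and 4.27 TPM. The blank libraries were at 2.80, 2.47 and 2.74 TPM. All 3 antagonist libraries lay above the other 6. The log2 fold change was -0.49 ± 0.10 (limma, adjusted p = 0.0117), and within the flow cells it was -0.36 and -0.46. It no longer passed after quantile normalization (-0.19, limma, adjusted p = 0.258) or median of ratios scaling (-0.28, limma, adjusted p = 0.0554). In the RefSeq annotation the span of FBXO5 overlaps that of MTRF1L, a mitochondrial release factor gene, so some reads may be shared. Overlap of exons and the strands of both genes were not checked, and use of strand in counting is not stated. MTRF1L was at 3.89 ± 0.22 TPM with the agonist, 5.55 ± 0.66 TPM with the antagonist and 3.98 ± 0.58 TPM in blank cells (mean ± SD, n = 3 each), and its log2 fold change was -0.42 ± 0.11 (limma, adjusted p = 0.0257).

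PSMB3, a beta subunit of the proteasome core, was at 138, 119.9 and 136 TPM with the agonist and at 96.7, 107 and 101 TPM with the antagonist. The blank libraries, at 105, 137 and 118 TPM, overlapped both. The log2 fold change of agonist relative to antagonist was 0.37 ± 0.11 (limma, adjusted p = 0.0328), or 1.29-fold higher in TPM + 1. Within the flow cells the log2 difference was 0.37 and 0.28. PSMB3 passed under each of the 3 other scalings, with log2 fold changes of 0.58, 0.53 and 0.64 in the order above. It did not pass with the flow cell as a term in the model (0.30, limma, adjusted p = 0.0546). DDA1, KLHL30 and FBXO5 did pass with that term (limma, adjusted p = 0.0446, 0.0385 and 0.0317). The share of all genes called in that fit is not given here. The call of PSMB3 was also lost without agonist replicate 1 or 3 and without any 1 of the antagonist libraries (limma, adjusted p = 0.0517 to 0.118).

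**Figure D2:**
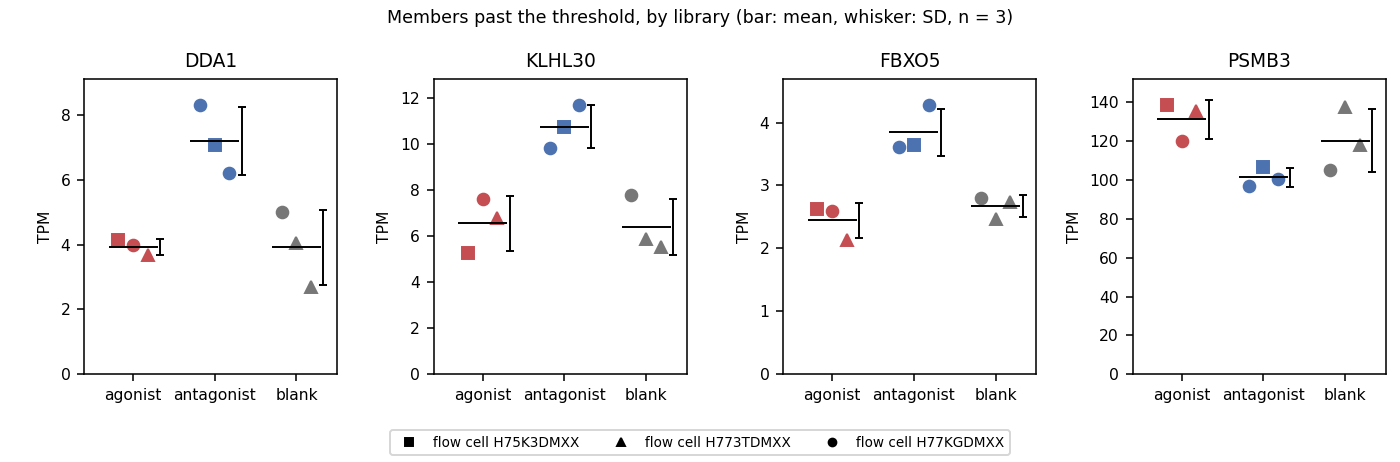
TPM (axis from 0) of the 4 members past the threshold, by group; points are libraries, shapes are flow cells, the bar is the mean and the whisker the SD (n = 3). DDA1, KLHL30 and FBXO5 are higher in each antagonist library than in the other 6, and PSMB3 is higher in each agonist than in each antagonist library.

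These counts changed with single libraries and with the model. No member passed once agonist replicate 1 or antagonist replicate 3 was left out, where 1.8% and 2.04% of all genes passed. Leaving out antagonist replicate 1 gave 2 members, agonist replicate 2 gave 11 and blank replicate 1 gave 7, where 6.85%, 35.5% and 32.3% of all genes passed, so the members' counts moved with those of the whole table. The relative worth of 1 fragment in each library, a measure that depends on depth and composition, was added as a term after seeing the data. With it 0 of 38 passed in limma, where 0.601% of all tested genes passed. This worth was 1.03 to 1.08 in agonist and 1.11 to 1.18 in antagonist libraries. The term therefore takes up part of the group difference, and the loss of calls cannot be read apart from that.

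The tested members lay on both sides of the median of all genes by subfamily. All 13 tested cullin-RING genes taken by the symbol rule had negative log2 fold changes, as did 84.1% of all tested genes. The 13 values ran from -0.73 to -0.07 with a median of -0.31. RBX1, the RING subunit of these ligases, lies outside the rule and was at 0.08. Of the 13, 3 passed (23.1%, near the 23.9% of all genes that were lower), among them DDA1, which the rule names in full. In 8 of the 13, DDA1 included, all agonist libraries were below the antagonist libraries, where 44.8% of all tested genes had such groups. CUL5, a cullin scaffold, was at 3.46, 3.71 and 3.40 TPM with the agonist and at 5.33, 4.04 and 4.46 TPM with the antagonist. It did not pass (log2 fold change -0.31 ± 0.12, limma, adjusted p = 0.0849). DCAF1 and FBXO48 were near the same size at -0.31 and -0.34 (limma, adjusted p = 0.0560 and 0.0574). KLHL36, DCAF13, FBXO9, FBXO22 and FBXW8 were at -0.07, -0.07, -0.08, -0.11 and -0.15, nearer to 0 than the median of all genes.

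Among the 6 proteasome genes the log2 fold changes ran from -0.18 to 0.37 with a median of 0.09. PSMG1, a chaperone of proteasome assembly, was at 16.4, 12.8 and 15.9 TPM with the agonist and 12.7, 11.6 and 11.8 TPM with the antagonist. These groups did not overlap, by 0.0413 TPM at the closest, and the difference did not pass (log2 fold change 0.29 ± 0.10, limma, adjusted p = 0.0555). PSMG1 and PSMB3 were the only 2 of the 38 members with every agonist library above every antagonist library, where 3.12% of all tested genes had this. The core subunits PSMA2 and PSMB7 were at 0.11 and 0.08. The regulatory particle subunits PSMD13 and PSMD6 were at -0.10 and -0.18. None of these 4 passed.

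Because the median of all 832 genes was -0.21, each scaling that moves this median toward 0 moves all members upward. After these 3 scalings, in the order above, the median of all genes was -0.04, 0.02 and 0.0049. All 6 proteasome genes then had log2 fold changes above 0 under each of the 3, with medians of 0.30, 0.25 and 0.36. PSMB3 and PSMG1 passed with upper quartile scaling, PSMB3 alone with quantile normalization, and PSMB3, PSMG1 and PSMB7 with median of ratios scaling, where PSMA2 missed the threshold narrowly (0.38, limma, adjusted p = 0.0506). Genes called higher made up 4.21%, 3% and 6.25% of all genes in these 3 fits. The direction of PSMD6 and PSMD13 thus differed between TPM as deposited and the scaled values. Of the 13 cullin-RING genes, 4, 5 and 5 were above 0 after the 3 scalings, and the medians were -0.14, -0.02 and -0.10. DDA1, KLHL30 and FBXO5 stayed below 0 in all of them. The 2 subfamilies kept their order relative to each other in all 4 sets of values, which was not tested as a difference between lists. Upper quartile and median of ratios scaling divide each library by a single factor, which moves all genes by near equal log2 amounts. The order was thus nearly fixed in advance under them, and the 4 sets are not separate evidence for it. The 2 subfamilies also differ in level, as all proteasome genes averaged above 13 TPM and all cullin-RING genes but FBXO22 under 10 TPM. In TPM as deposited the median of all genes was -0.13 at means of 10 TPM or more and -0.26 below. The part of level in this order was not tested.

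**Figure D3:**
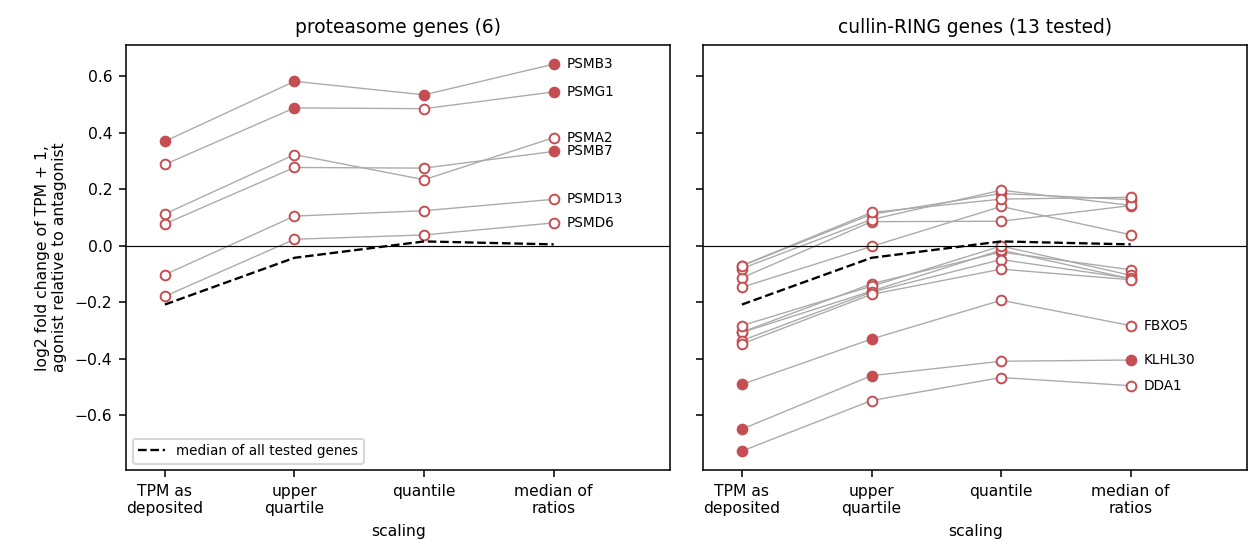
Log2 fold change of TPM + 1, agonist relative to antagonist, for the 6 proteasome genes (left) and the 13 tested cullin-RING genes (right) under 4 scalings; filled points passed an adjusted p of 0.05 and the dashed line is the median of all 832 genes. Each proteasome gene lies above the dashed line under all 4 scalings, and DDA1, KLHL30 and FBXO5 lie below it. Scaling moves the genes and the dashed line together, so the 4 positions of a gene are not independent.

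Summed per library, the 6 proteasome genes taken by the rule were higher with the agonist than with the antagonist, and the 16 cullin-RING genes lower. The sums hold only these listed genes and do not stand for the whole proteasome or all cullin-RING ligases. The mean proteasome sums were 258 and 224 TPM, and PSMB3 averaged 131 and 101 TPM. Most of that difference was thus PSMB3, and PSMD6 and PSMD13 went the other way. The 6 proteasome genes summed to 263, 242 and 268 TPM in agonist replicates 1, 2 and 3, to 221, 226 and 225 TPM with the antagonist and to 229.8, 262 and 248 TPM in blank cells; PSMB3 alone gave 43.7% to 52.6% of each sum. The 16 cullin-RING genes summed to 56.4, 68.1 and 58.1 TPM, 78.3, 77.2 and 79.1 TPM, and 77.8, 61.0 and 61.7 TPM in the same order. Agonist and antagonist libraries did not overlap in either sum. Blank replicate 1, which shared flow cell H77KGDMXX with antagonist replicates 1 and 3, was near the antagonist libraries in the cullin-RING sum, and agonist replicate 2 on the same flow cell was the highest of its group. On H75K3DMXX the agonist library was at 56.4 and the antagonist library at 77.2 TPM. The part of the flow cell in these sums was not tested apart from the values within flow cells given here.

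**Figure D4:**
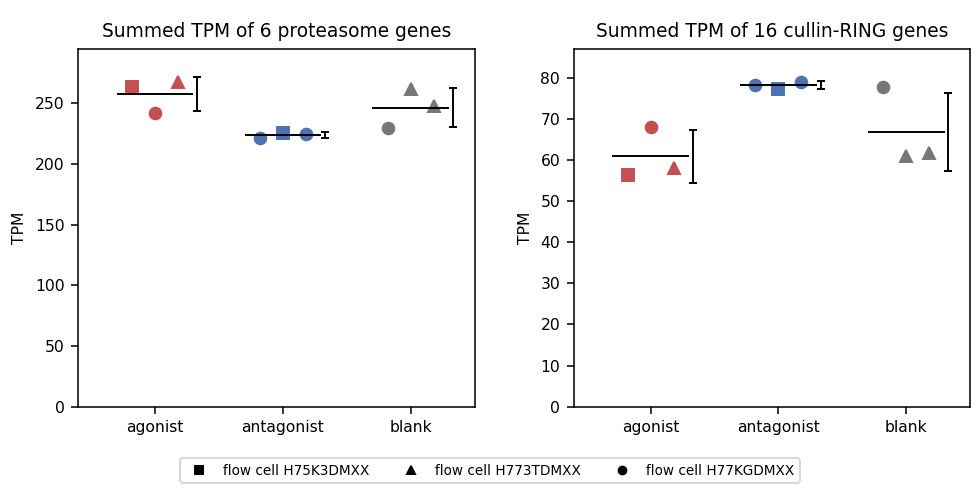
Summed TPM (axis from 0) of the 6 proteasome genes and of the 16 cullin-RING genes in each library; shapes are flow cells, the bar is the mean and the whisker the SD (n = 3). The antagonist libraries are the lowest in the proteasome sum, at 221 to 226 TPM; in the cullin-RING sum they lie at 77.2 to 79.1 TPM, with blank replicate 1 at 77.8 TPM.

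In the other subfamilies no member passed for agonist against antagonist in TPM as deposited. The 6 E2 enzymes had log2 fold changes from -0.17 to 0.10, with a median of -0.13. After the 3 other scalings the direction turned, with medians of 0.05, 0.10 and 0.10 and with 5, 6 and 6 of the 6 above 0. UBE2J2 averaged 38.1 ± 4.5 TPM in agonist and 39.7 ± 1.5 TPM in antagonist libraries, and UBE2G1 9.37 ± 0.58 and 10.3 ± 1.4 TPM (mean ± SD, n = 3 each). Their log2 fold changes were -0.06 and -0.12. UBE2V2, a variant that lacks the catalytic cysteine and works with UBE2N, was above 0 in TPM as deposited, at 0.10, and passed after median of ratios scaling (0.35, limma, adjusted p = 0.0465). COPS2, a subunit of the COP9 signalosome that removes NEDD8 from cullins, was at -0.19, and DCUN1D3, which takes part in attaching NEDD8, at 0.01. The deubiquitinase USP45 was at 1.30, 1.73 and 1.60 TPM with the agonist and 2.11, 1.99 and 2.19 TPM with the antagonist, groups that did not overlap, and it missed the threshold (log2 fold change -0.29 ± 0.10, limma, adjusted p = 0.0513). OTULIN, which cleaves linear ubiquitin chains, was at 8.25, 12.3 and 7.76 against 12.7, 11.6 and 12.5 TPM, so that agonist replicate 2 lay within the antagonist range (-0.37 ± 0.16, limma, adjusted p = 0.105). Within flow cells, OTULIN differed by -0.45 on H75K3DMXX and by -0.03 on H77KGDMXX.

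The RING ligases RNF6 and RNF14, known in mammals as regulators of androgen receptor activity, were at log2 fold changes of -0.27 and -0.15, RNF130 at -0.16 and RNF11 at 0.06. TRIM54, a muscle RING-finger protein in mammals, was at -0.36 and TRIM7.2 at 0.01. TRIM7 and TRIM7.2 have related names, and how reads shared by such copies were counted is not stated, so both values are uncertain. FBXL22, FBXO48, UBE2Z and DCUN1D3 overlap a gene that was not analysed here (HERC1, APLF, SNF8 and LYRM1) and are uncertain likewise. UBXN2A and UBXN2B, cofactors of the ATPase VCP, were at -0.03 and -0.26. PSMC3IP averaged 16.7 ± 2.1 TPM in agonist and 20.8 ± 2.5 TPM in antagonist libraries, and its log2 fold change was -0.30 (limma, adjusted p = 0.0926).

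**Figure D5:**
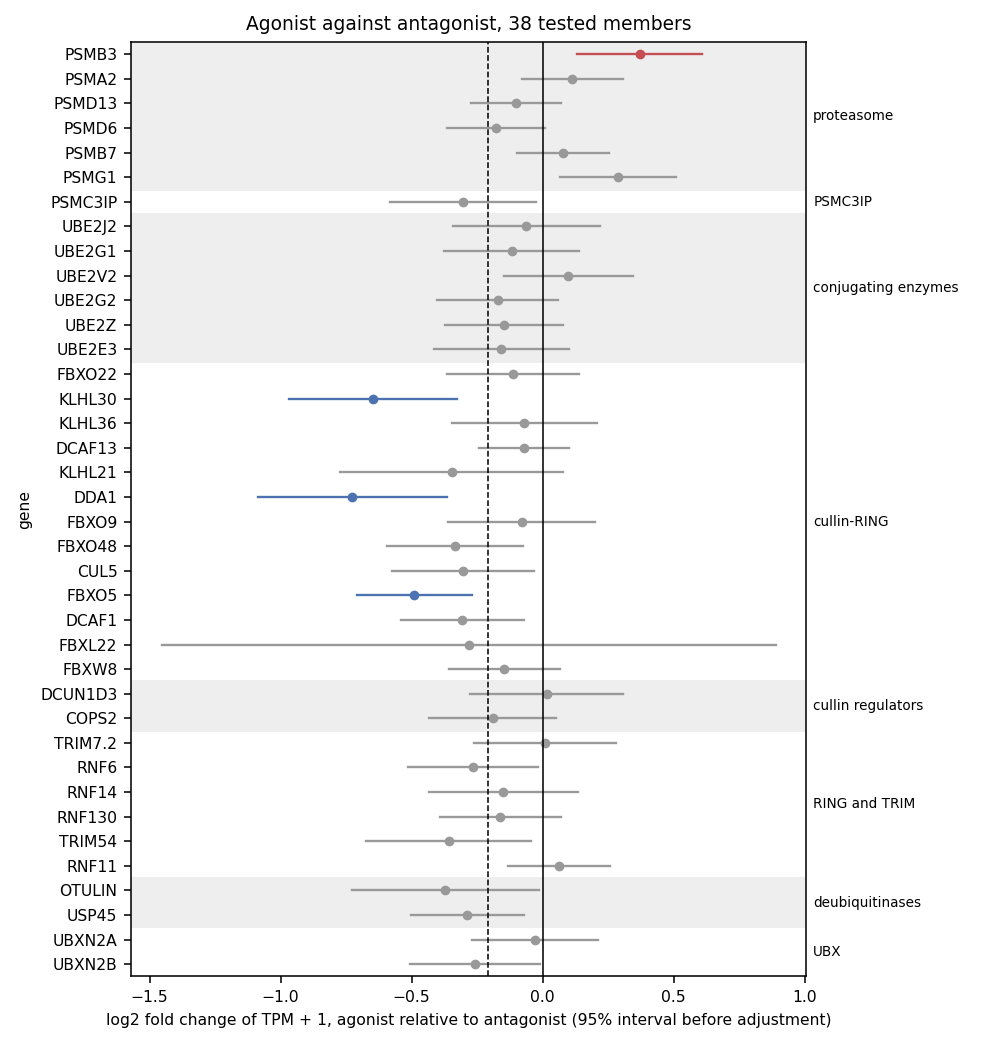
Log2 fold change of TPM + 1, agonist relative to antagonist, with its 95% interval before adjustment, for the 38 tested members by role; coloured points passed an adjusted p of 0.05 (red higher, blue lower with the agonist), the solid line is 0 and the dashed line the median of all 832 genes, -0.21. The 13 cullin-RING genes lie below 0, and 4 of the 6 proteasome genes lie above 0.

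The 5 members too low to be tested had every agonist library below every antagonist library, which held for 28.5% of the 487 genes that were under the filter and not at 0 throughout. FBXO15 was at 0.0600, 0.0585 and 0.0767 TPM with the agonist and 0.260, 0.238 and 0.270 TPM with the antagonist. USP30, a mitochondrial deubiquitinase, was at 0.155, 0.358 and 0.187 against 0.540, 0.582 and 0.886 TPM. The agonist and antagonist means were 0.407 and 0.761 TPM for FBXO38, 0.504 and 0.908 TPM for FBXO21, and 0.526 and 0.625 TPM for TRIM7. With no filter on low values FBXO15, FBXO38 and USP30 passed in limma (adjusted p = 0.0198, 0.0312 and 0.0391), where 13.6% of the 1319 genes in that fit passed as lower. At these levels a value can rest on few reads, whose number is unknown.

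Antagonist cells were next set against blank cells, the control group. The antagonist libraries are those of the first comparison, so the results of both are not independent. DDA1, KLHL30 and FBXO5 were higher with the antagonist, and no member was lower. That was 3 of 38 members (7.89%), where 11.1% of all tested genes passed, 10.2% higher and 0.841% lower. The log2 fold changes were 0.76 ± 0.16 for DDA1, 0.68 ± 0.14 for KLHL30 and 0.40 ± 0.10 for FBXO5 (limma, adjusted p = 0.0327, 0.0327 and 0.0419). In TPM + 1 these are 1.69-fold, 1.60-fold and 1.32-fold. An unadjusted p under 0.05 was found for 7 of the 38 members and for 30.3% of all tested genes. MTRF1L, which overlaps FBXO5, was at 0.40 ± 0.11 (limma, adjusted p = 0.0490). On H77KGDMXX, the flow cell with libraries of both groups, the log2 differences were 0.45, 0.42 and 0.38 for DDA1, KLHL30 and FBXO5. None of the 3 passed with the flow cell as a term (limma, adjusted p = 0.139, 0.106 and 0.144). KLHL30 and FBXO5 did not pass with the replicate number as a block (limma, adjusted p = 0.0607 and 0.0726). FBXO5 was also lost after quantile normalization (0.18, limma, adjusted p = 0.320) and median of ratios scaling (0.28, limma, adjusted p = 0.0753). DDA1 was lost after quantile normalization (0.60, limma, adjusted p = 0.0553). KLHL30 passed under each of the 3 other scalings, and all 3 genes passed after upper quartile scaling. No member passed when any 1 of the antagonist libraries or of blank replicates 2 and 3 was left out, where 0.24% to 0.962% of all genes passed, and 8 passed without blank replicate 1, where 25.5% of all genes did.

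Among the remaining 35 members none passed. The median log2 fold change was 0.07 for the members and 0.12 for all genes. RNF6 was at 24.4, 23.6 and 20.9 TPM with the antagonist and 20.9, 16.5 and 17 TPM in the blank, and its log2 fold change was 0.33 ± 0.11 (limma, adjusted p = 0.0835). USP45 was at 0.25 and UBE2G2, an E2 of degradation at the endoplasmic reticulum, at 0.24 (limma, adjusted p = 0.112 and 0.144). PSMB3 was at -0.24 (limma, adjusted p = 0.164). All 6 E2 enzymes were above 0, from 0.01 to 0.24, as were 582 of the 832 tested genes. Under each of the 3 other scalings 3 of the 6 E2 enzymes were above and 3 below. Every antagonist library was below every blank library for TRIM7.2, PSMA2 and PSMG1, which was 3 of 38 members, where 7.69% of all tested genes had this; the reverse held for DDA1, KLHL30, FBXO5 and USP45, where 26.2% of all tested genes had it. On H77KGDMXX alone, with 2 antagonist libraries against 1 blank library, the median of the 38 members was 0.0023, with 19 above and 19 below 0. The median of all tested genes there was 0.04, with 498 above and 334 below 0.

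Agonist cells set against blank cells gave no call. No member passed in limma (0% of all tested genes passed, 12.3% had an unadjusted p under 0.05, and 1 of the 38 members did). The member with an unadjusted p under 0.05 was TRIM54, at 2.29, 3.64 and 2.21 TPM with the agonist and 4.18, 3.56 and 4.12 TPM in blank cells, groups that overlapped through agonist replicate 2. Its log2 fold change was -0.44 ± 0.14 (limma, adjusted p = 0.279). Without agonist replicate 2 TRIM54 and PSMG1 passed, at -0.61 and 0.30 (limma, adjusted p = 0.0142 and 0.0497), where 8.05% of all genes passed. PSMG1 was at 0.19 ± 0.10 in all libraries (limma, adjusted p = 0.469).

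TRIM7.2 was at 275, 272 and 200.3 TPM with the agonist and 277, 307 and 289 TPM in blank cells, so that all agonist libraries were lower, the nearest by 1.72 TPM. Agonist libraries lay below all blank libraries in 10.6% of all tested genes, and among the 38 members in TRIM7.2 and DCAF13; they lay above in 1.32% of all tested genes and in 0 of the members. The log2 fold change of TRIM7.2 was -0.24 ± 0.12 (limma, adjusted p = 0.469), and it was -0.57 on H773TDMXX and -0.03 on H77KGDMXX. For the genes that passed elsewhere, the 95% intervals before adjustment were -0.33 to 0.39 for DDA1, -0.29 to 0.35 for KLHL30, -0.31 to 0.13 for FBXO5 and -0.11 to 0.37 for PSMB3. These intervals reached a median of 0.25 to either side of the estimate over the 38 members on the log2 scale. That width is before adjustment, and a call needed a larger difference, as TRIM54 at -0.44 did not pass.

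Further genes of the ubiquitin system, from a list of 241 symbols outside the symbol rule, were listed for 30 genes, of which 21 were tested. Agonist against antagonist, 5 of these 21 passed (23.8%, beside 25.6% of all tested genes), all lower, and 16 did not. The median log2 fold change of the 21 was -0.24, beside -0.21 for all genes. Of the 21 values, 19 were below 0 and 2 above, RBX1 at 0.08 and KBTBD4 at 0.15. Among the 5 genes that passed, the adjusted p in limma lay between 0.0294 for SUMO3 and 0.0475 for CRBN. SUMO3, a ubiquitin-like modifier, fell by 0.46, ECPAS, a scaffold that binds proteasomes, by 0.36, the SOCS-box protein CISH by 0.34, the RING ligase ZNRF1 by 0.34 and the cullin 4 substrate receptor CRBN by 0.29. The agonist libraries had SUMO3 at 2.93, 2.89 and 2.90 TPM, the antagonist libraries at 4.15, 4.72 and 4.27 TPM and the blank libraries at 3.54, 2.57 and 2.1 TPM, so the antagonist libraries lay above all others. It was the 1 gene of the 21 (4.76%, beside 11.1% of all tested genes) that passed for antagonist against blank (log2 fold change 0.54 ± 0.13, limma, adjusted p = 0.0380). RBX1, the RING subunit of cullin-RING ligases, was at 11.3 ± 0.38, 10.6 ± 0.88 and 11 ± 0.19 TPM with the agonist, with the antagonist and in blank cells (mean ± SD, n = 3 each), and passed in no comparison. None of the 21 passed for agonist against blank, and 3 had an unadjusted p under 0.05.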

How the data were processed

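RNA-seq of 9 libraries in 3 groups was analysed from TPM values that the authors deposited, with 1 column per library. Per the labels' protocols total RNA came from a Trizol extraction and went into NEBNext Ultra libraries. Tools in the submitters' processing notes, with no role given, are StringTie 1.2.2, Cufflinks 2.2.1 with Cuffdiff, TopHat2 2.1.0 and CASAVA 1.8.2; build, annotation and strand: not given in the sources used here. TPM keeps no depth, so reads per library are unknown. Groups came from the sample titles. The members and gene lists were chosen with earlier results of these data known. Genes at 1 TPM or more in at least 3 libraries were tested on log2(TPM + 1) with limma 3.58.1 in R 4.3.3 (linear model of 3 groups, empirical Bayes with a variance trend, Benjamini-Hochberg adjustment over 832 genes). Alternatives were other pseudocounts, filters and scalings, library weights, a replicate block, a flow cell term, a fragment worth term and leaving out each library. The scalings were computed from the tested genes alone. The fit was also run on simulated data with independent noise and no flow cell or shared library effects. That run cannot speak to such effects, and its outcome is not given here. Named members were those called in any comparison, the 2 highest of each subfamily with no call, and the 3 smallest p per comparison; others named were chosen after their values were seen. The worth of 1 fragment was the most frequent ratio to blank replicate 3 among genes under 0.5 TPM (within 0.01 on the log2 scale), from 1.00 to 1.21; agonist libraries were at 1.03 to 1.08 and antagonist libraries at 1.11 to 1.18. RefSeq (Taihu goose) served for names and neighbours only. Sequences were not used here.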

Additional observations from a re-analysis of the deposited data

How the results depend on the processing

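The count of members passing for agonist against antagonist, 4 as reported, was 7 with no filter on low values (14.5% of all genes passed, beside 25.6%), 1 with quantile normalization (6.25%), 14 with library weights (44.4%) and 0 with the worth of a fragment as a term (0.601%; chosen after seeing the data). Without 1 library each it ran from 0 to 11 (1.8% to 35.5%). For antagonist against blank, 3 (11.1% of all genes) became 0 with no filter (1.29%), 1 with quantile normalization (4.93%), 0 with the flow cell as a term (0%), 1 with the replicate block (3.25%), 11 with library weights (41.8%), and 0 to 8 without 1 library (0.24% to 25.5%). For agonist against blank, 0 became 0 to 2 without 1 library and stayed 0 in the other settings run. The cause of these changes was not tested. The median log2 fold change of the members changed sign for agonist against antagonist with upper quartile scaling (0.0159 in place of -0.15), quantile normalization (0.0660) and median of ratios (0.0686). It also did for antagonist against blank with quantile normalization (-0.0800 in place of 0.07) and median of ratios (-0.0525), and for agonist against blank with upper quartile scaling (0.0620 in place of -0.05), quantile normalization (0.0494) and median of ratios (0.0433). The 7 log2 fold changes of called members kept their sign in every setting run.

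Replicate numbers were not shown to pair libraries: deviations from group means of same-numbered agonist and antagonist libraries correlated at 0.06, 0.21 and 0.22 over genes, each library best with its own number, but not so for the other comparisons. With the replicate block DDA1, KLHL30, FBXO5 and PSMB3 kept their calls for agonist against antagonist (limma, adjusted p = 0.0165, 0.0318, 0.0279 and 0.0472). The share of all genes called in that fit is not given here, so these calls cannot be read against it. The counts of members in the other comparisons, in the order above, were 1 and 0. Without depth the precision of low members is unknown.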

Other observations

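PSMD13 lies next to SIRT3 in the RefSeq annotation of the Taihu goose assembly, and in human both genes are transcribed in opposite directions from a shared promoter region. SIRT3, a mitochondrial deacetylase, was at 3.93, 6.08 and 5.61 TPM with the agonist and 11.2, 12.8 and 13.5 TPM with the antagonist, and its log2 fold change was -1.14 ± 0.17 (limma, adjusted p = 0.00438). PSMD13 was at 28.9, 30.6 and 27.6 against 31.3, 29.7 and 32.7 TPM, with a log2 fold change of -0.10 ± 0.08 and a 95% interval before adjustment of -0.27 to 0.07. The upper bound of the interval of SIRT3 was -0.77. In blank cells PSMD13 was at 30.4, 30.7 and 30.1 TPM and SIRT3 at 7.87, 6.76 and 5.07 TPM.

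Of 12 tested genes that overlap or adjoin a member, 6 passed for agonist against antagonist in limma and 6 did not, where 25.6% of all tested genes passed. Beside SIRT3 and MTRF1L these were ACAT1 beside CUL5 (log2 fold change -0.31, adjusted p = 0.0217), ANKH beside OTULIN (-0.45, adjusted p = 0.0177), and SECISBP2L and GALK2 on either side of COPS2 (-0.45 and -0.40, adjusted p = 0.0268 and 0.0215). CUL5, OTULIN and COPS2 themselves did not pass, at -0.31, -0.37 and -0.19. MRPL32, ADGRD2, ECI2, ANKFY1, SLC25A32 and FAM110B did not pass.

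Among members with a mean of 10 TPM or more, 5 of 13 had log2 fold changes above 0 for agonist against antagonist, and 3 of 25 below that level did; of all tested genes 85 of 296 and 47 of 536 did. This level was chosen after the values were seen.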
